A study of Mus musculus with 8 samples.

Results

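Spiral ganglion neurons are the bipolar sensory neurons of the cochlea. Their peripheral processes run into the organ of Corti and end on hair cells, and their cell bodies lie in a ganglion beside it. Type I neurons contact inner hair cells and type II neurons contact outer hair cells. Like other neurons they build axons from neurofilaments, release glutamate from synaptic vesicles and fire action potentials through voltage-gated sodium and potassium channels. The 35 genes described here encode such products: neurofilament, axon growth, neuronal regulator, secretory granule, synaptic vesicle, glutamate loading, excitability and cytosolic proteins. They were taken by symbol from a list, and all 35 were found among the 41079 genes of the count tables.

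RNA-seq of total RNA, freed of ribosomal RNA, was carried out on organ of Corti micro-dissected at postnatal day 0. This epithelium holds the hair cells and supporting cells of the mouse cochlea. The 4 libraries labelled Prox1 knockout carry Emx2-cre together with floxed Prox1. The 4 others are labelled wildtype. Prox1 is a homeobox transcription factor of supporting cells and is also known from spiral ganglion neurons, and the study's title names innervation among the processes it concerns. Strain, whether the wildtype libraries carry Cre or the floxed gene, and whether the driver acts in ganglion neurons are not given in the labels. Nor is it given whether each library is a different animal, and the p-values therefore rest on a spread among samples that may be technical.

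The libraries labelled knockout held 29908965 to 32613549 counts and the wildtype libraries 32863533 to 42318233 counts. Prox1 was at 147, 137, 138 and 134 CPM (counts scaled to library size) in libraries 1 to 4 labelled knockout and at 109, 114, 106 and 115 CPM in wildtype libraries 1 to 4. Its log2 fold change was 0.33 ± 0.05 (SE), with a Benjamini-Hochberg adjusted p of 0.0298 by edgeR's quasi-likelihood test. At the level of whole-gene counts this goes against the label, so directions are given for the libraries as labelled. The counts cover Prox1 as a whole gene, and loss of a floxed part was not analysed here. Hair cell and supporting cell markers were present in every library, with Myo7a at 70.3 to 92.5 CPM and Sox2 at 93.1 to 113 CPM, as were markers of Schwann and satellite glia, with Sox10 at 234 to 268 CPM.

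The dissection was checked against genes of efferent and brainstem neurons, whose axons or cells could also reach it. Markers of sensory or glutamatergic neurons, Pou4f1, Prph, Slc17a6 and Slc17a7, were counted in all 8 libraries but are members themselves. Of the efferent and brainstem genes, 6 passed the low-count filter. Among these, the choline transporter gene Slc5a7 had 345 to 492 counts in the libraries labelled knockout and 399 to 554 in wildtype. Gad1, a GABA-synthesizing enzyme, had 481 to 662 counts in the libraries labelled knockout and 570 to 749 in wildtype, and Gata2, a transcription factor of several cell types, had 3225 to 4108 in the libraries labelled knockout and 4063 to 4915 in wildtype. The rest of the 6, Gad2, Calca and Slc6a5, had at most 74 counts in a library. Chat, the acetylcholine-synthesizing enzyme of efferent neurons, and the hindbrain gene Hoxb1 had 0 counts in each of the 8 libraries. Slc18a3, the vesicular acetylcholine transporter gene, and Mog, an oligodendrocyte gene, each had 1 count in all. Phox2a, Calcb, Slc32a1 and Olig2 had at most 11 counts in a library. The part of such neurons in the levels of the members was not tested. Neurod1, a basic helix-loop-helix factor of neurons as they form, had 4 to 8 counts in the libraries labelled knockout and 4 to 15 in wildtype. It was the 1 member that did not pass the low-count filter, which left 34 members tested. Many members are also made outside neurons: calretinin (Calb2) and Snap25 are known in hair cells, and Thy1 in connective tissue and lymphocytes. Such members do not mark neurons alone, and the part of other cells in the levels of the list was not tested.

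No member differed between the libraries labelled knockout and wildtype by the test across all genes. Of 34 tested members, 0 were called higher and 0 lower when edgeR's quasi-likelihood p, adjusted by Benjamini-Hochberg over 20581 genes, was held to 0.05. Over all tested genes 0.034% were called higher and 0.0583% lower, 0.0923% in either direction, so 0 of 34 is near the background. At an unadjusted p under 0.05, 0 members were higher and 1 was lower, Scg2, against 4.76% and 2.78% of all tested genes. DESeq2 and limma-voom called 0 members as well, and none of the 34 members had an adjusted p under 0.05 in the authors' deposited table, where 0.45% of genes did and the lowest value of a member was 0.656 for Slc17a6. The authors' unadjusted DESeq2 p was under 0.05 for 2 members, Slc17a6 (0.0453) and Scg2 (0.0498), both with fold changes below 0. The share of all genes at that cutoff was not worked out for their table. In 0 of the 34 did the groups separate without overlap, against 2.07% of tested genes that lay higher and 1.62% that lay lower without overlap, 3.69% together. The median log2 fold change of the members was -0.05, with 27 of 34 below 0, beside a median of 0.00 over all tested genes, 10290 of which lay below 0.

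The intervals of the members were wider than those of most genes, with a median width of 0.71 on the log2 scale against 0.39 over the tested genes with a mean of at least 1 CPM and 0.48 over all tested genes. The unadjusted 95% interval of the log2 fold change lay between -1 and 1, that is within a 2-fold change, for 33 of 34 members, which is 97.1%, against 97.2% of the 17053 tested genes with such a mean. It lay within a 1.5-fold change for 26 members, 76.5%, against 80.7% of those genes. The 8 members whose interval reached past 1.5-fold were Nefh, Prph, Thy1, Pou4f1, Elavl4, Scg2, Slc17a6 and Slc17a7. The sum over the 34 members was 1150, 936, 1030.2 and 1018 CPM in libraries 1 to 4 labelled knockout and 1133, 1210.1, 872 and 1062 CPM in wildtype libraries 1 to 4, with means of 1034 ± 88.3 and 1069 ± 145 CPM (SD, n = 4 per group). In bulk RNA, fewer neurons in a dissection and less RNA per neuron cannot be told apart.

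**Figure D1:**
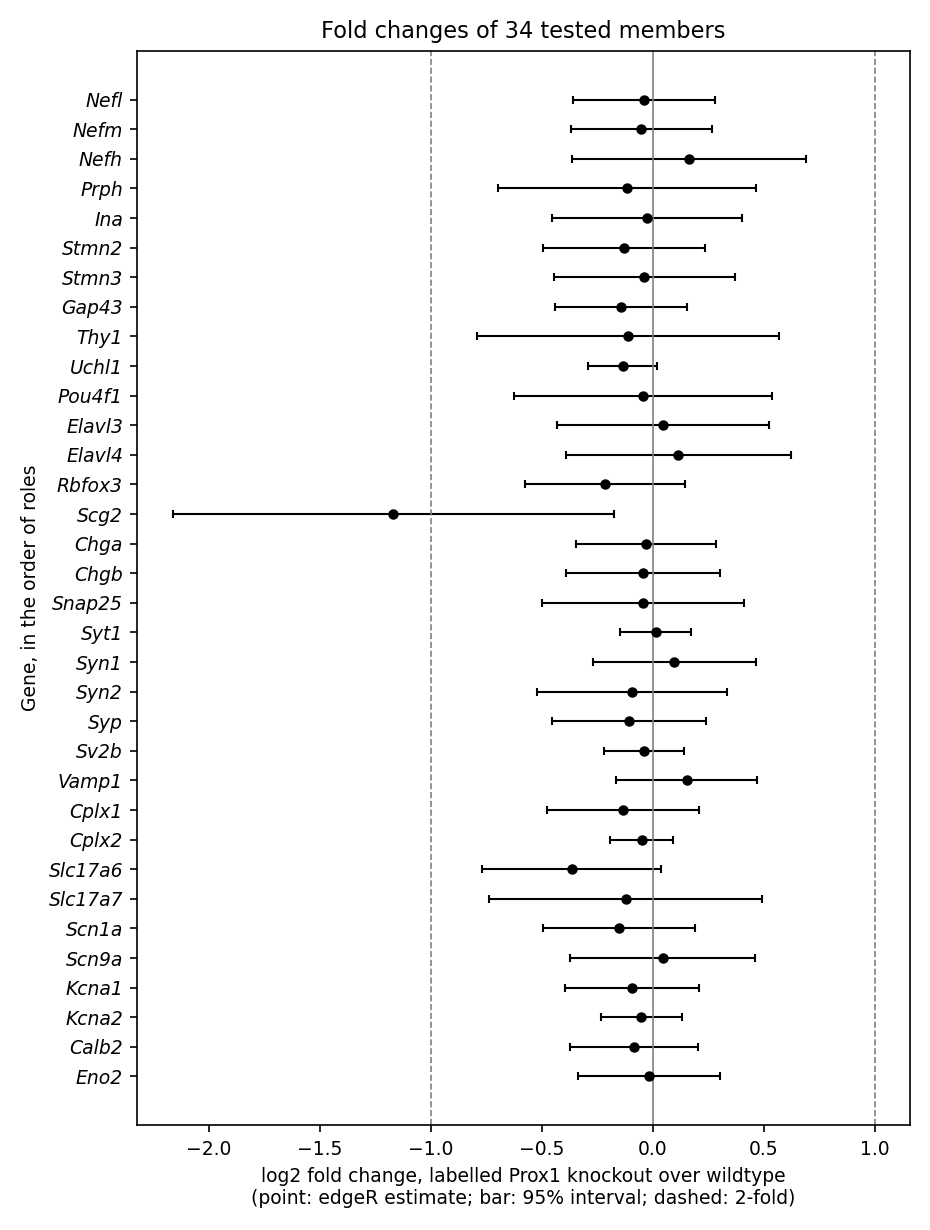
Log2 fold change of each tested member, libraries labelled Prox1 knockout over wildtype, with genes down the page in the order of their roles. Points are edgeR estimates and bars unadjusted 95% intervals, dashed lines mark a 2-fold change, and only the bar of Scg2, centred on -1.17, reaches past a dashed line.

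The members varied more between libraries than most genes, and in a shared way. The median within-group SD of log2 CPM was 0.293 over the members, 0.142 over all tested genes and 0.122 over those with a mean of at least 1 CPM. Wildtype library 3 was the lowest of the 8 libraries for 26 of 34 members (76.5%), against 22.4% of all tested genes. Wildtype library 2 was the highest of the 8 for 20 members (58.8%), against 10.8% of all tested genes. Among the libraries labelled knockout, library 1 was the highest for 22 members (64.7%), against 21.3% of all tested genes. The median ratio of wildtype library 2 to wildtype library 3 was 1.74 over the members. Over all tested genes it was 1.01, but scaling of the libraries holds that median near 1. This pair was picked after the values were seen, as the libraries where members were most often highest and lowest. Its ratio therefore cannot be weighed against the difference between the groups.

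**Figure D2:**
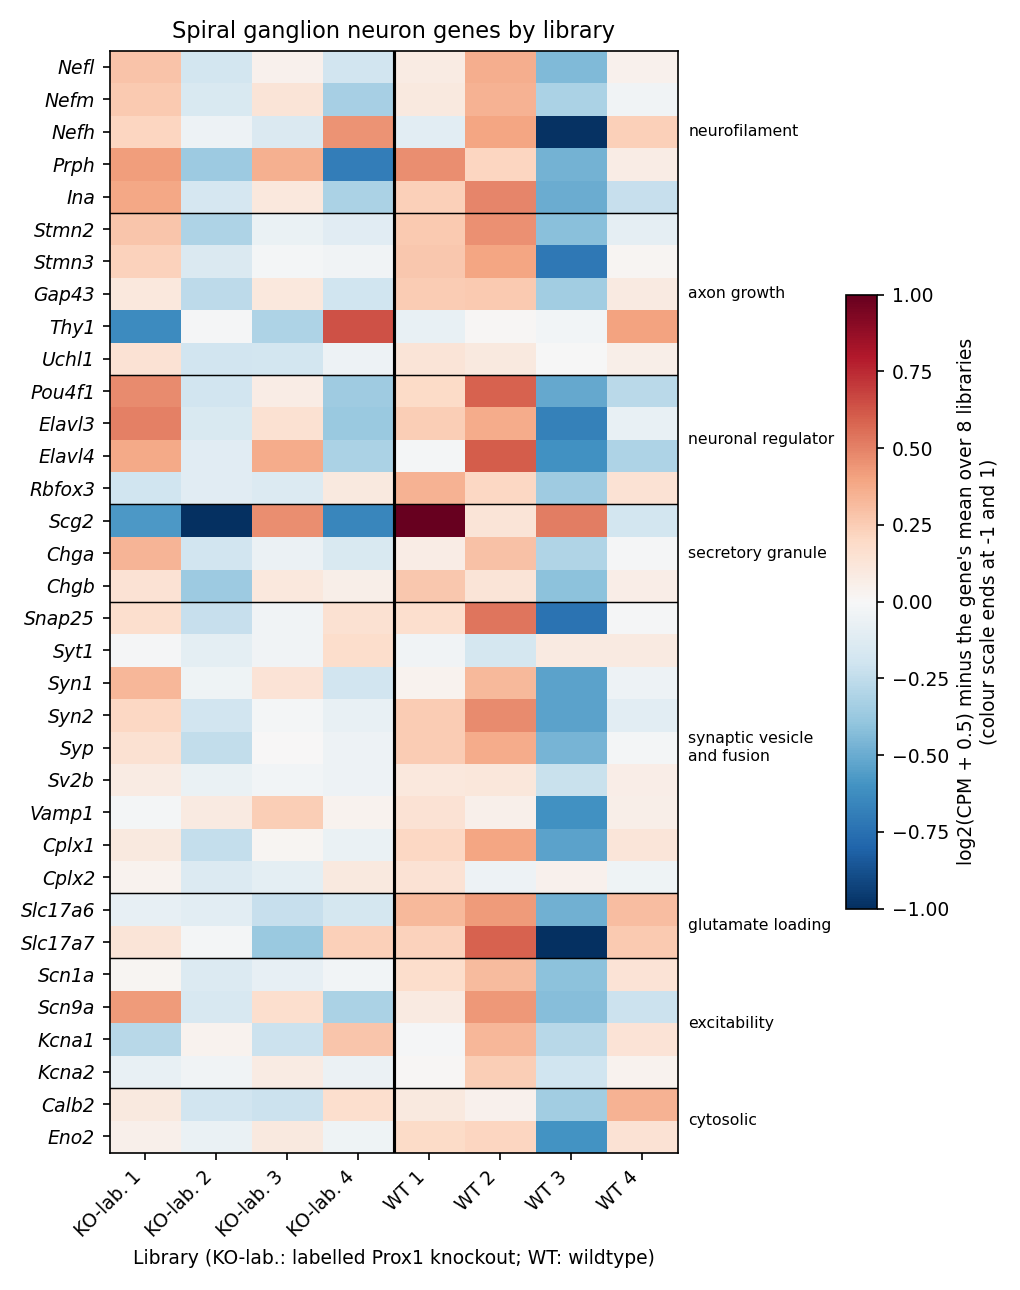
Each row is a tested member, grouped by role, and each column a library, with the libraries labelled knockout on the left. Colour is log2(CPM + 0.5) minus the gene's mean over the 8 libraries, and wildtype library 3 is the lowest column for 26 of the 34 rows.

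The sign and size of the median fold change varied with the libraries that entered. Without wildtype library 3 the median log2 fold change was -0.18 with 32 of 34 members below 0, and without wildtype library 2 it was 0.02 with 14 below 0. Without library 1 labelled knockout it was -0.14, and without wildtype libraries 1 and 3 together it was -0.20. No member passed the threshold in any of these fits.

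Neurofilament genes encode the intermediate filaments that set the calibre of axons. Nefl, the light chain, had 112, 81.0, 95.1 and 80.5 CPM in the libraries labelled knockout and 97.7, 118, 67.9 and 94.8 CPM in wildtype. The groups overlapped, with the lowest and the highest value in wildtype libraries 3 and 2, and the log2 fold change was -0.04 ± 0.15 (SE). Nefm, the medium chain, followed it closely with a ratio of wildtype library 2 to 3 of 1.59 and a log2 fold change of -0.05 ± 0.15. Its level was 38.5, 28.8, 35.1 and 25.3 CPM in the libraries labelled knockout, with 34.4, 40.8, 25.6 and 31.2 CPM in wildtype. In the GENCODE M21 annotation 32.8% of the exon bases of Nefl are shared with Nefm on the opposite strand, and since it is unknown whether counting used strand, reads there cannot be assigned to either. Nefh, the heavy chain, which is added as axons mature, had 17.1, 14.2, 13.3 and 20.2 CPM in the libraries labelled knockout and 13.6, 19.5, 7.14 and 17.4 CPM in wildtype. Its value in wildtype library 3 stood well below the other 7 libraries, and its log2 fold change was 0.16 ± 0.24.

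Ina, alpha-internexin, had 66.4, 45.1, 54.6 and 40.6 CPM in the libraries labelled knockout and 59.9, 71.2, 35.7 and 43.2 CPM in wildtype. The groups covered almost the same range, and the log2 fold change was -0.03 ± 0.20. Of the annotated exon bases of Ina, 14.1% are shared with Nt5c2 on the opposite strand. Peripherin, Prph, which is retained by type II neurons in the mature cochlea, had 8.51, 4.76, 8.14 and 3.69 CPM in the libraries labelled knockout and 8.82, 7.32, 4.36 and 6.60 CPM in wildtype. Each group held values near the top and the bottom of the range, and the log2 fold change was -0.12 ± 0.27 with an interval of -0.70 to 0.46.

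Axon growth genes include the microtubule regulators Stmn2 and Stmn3 and the growth cone protein gene Gap43. Stmn2 had 53.8, 35.8, 42.4 and 41.1 CPM in the libraries labelled knockout and 53.3, 61.0, 33.1 and 41.7 CPM in wildtype (log2 fold change -0.13 ± 0.17). Stmn3 and Gap43 had log2 fold changes of -0.04 ± 0.19 and -0.14 ± 0.14, both with their lowest value in wildtype library 3, at 14.5 and 13.9 CPM. Stmn3 was at 28.4, 21.8, 23.8 and 23.5 CPM in the libraries labelled knockout, with 29.1, 31.8, 14.5 and 24.5 CPM in wildtype. Gap43 was at 19.1, 14.7, 19.1 and 15.4 CPM in the libraries labelled knockout, with 21.2, 21.4, 13.9 and 18.9 CPM in wildtype. In both genes the range of wildtype enclosed that of the libraries labelled knockout. Uchl1, a ubiquitin hydrolase abundant in neurons, had 147, 117, 117 and 129 CPM in the libraries labelled knockout and 146, 143, 133 and 138 CPM in wildtype. It spread little over the wildtype libraries. Libraries 2 to 4 labelled knockout lay below all of these, and library 1 labelled knockout lay above them all, so the groups overlapped. The log2 fold change of Uchl1 was -0.13 ± 0.07 with an interval of -0.29 to 0.02, and 18.1% of its annotated exon bases overlap the antisense gene Uchl1os. Thy1, a surface glycoprotein of neurons and other cells, was low, with 24 to 84 counts per library, and like Syt1 and Calb2 it was highest in library 4 of each group. Its level was 0.814, 1.52, 1.14 and 2.65 CPM in the libraries labelled knockout, with 1.42, 1.54, 1.49 and 2.18 CPM in wildtype, and the log2 fold change was -0.11 ± 0.31.

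Neuronal regulators showed some of the widest spreads. Pou4f1, a POU-domain factor of sensory neurons, had 5.53, 3.30, 4.07 and 2.90 CPM in the libraries labelled knockout and 4.45, 6.03, 2.55 and 3.11 CPM in wildtype (log2 fold change -0.04 ± 0.27). The neuronal RNA-binding protein gene Elavl4 had 36.2, 25.7, 36.2 and 22.2 CPM in the libraries labelled knockout and 27.5, 42.6, 18.1 and 22.4 CPM in wildtype. Its extremes both lay in wildtype, and its log2 fold change was 0.12 ± 0.23. Elavl3, its paralog, gave 0.05 ± 0.22. It was at 28.5, 17.9, 22.2 and 15.3 CPM in the libraries labelled knockout, with 23.8, 25.9, 12.3 and 18.9 CPM in wildtype. Rbfox3, the splicing factor known as NeuN, had 4.00, 4.28, 4.22 and 5.04 CPM in the libraries labelled knockout, against 6.08, 5.48, 3.54 and 5.23 CPM in wildtype, with a log2 fold change of -0.21 ± 0.17.

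Secretory granule genes held the member with the largest fold change. Scg2, secretogranin II, a precursor of neuropeptides in dense-core granules, had 1.66, 0.892, 3.95 and 1.55 CPM in the libraries labelled knockout and 8.69, 3.02, 4.10 and 2.33 CPM in wildtype. Wildtype library 1 lay apart from all others, and library 3 labelled knockout lay above wildtype libraries 2 and 4, so the groups overlapped. Its log2 fold change of -1.17 ± 0.46 (SE) had a Benjamini-Hochberg adjusted p of 0.643 by edgeR's quasi-likelihood test, and it was -0.64 without wildtype library 1. Over the 70 ways to assign the libraries, an exact two-sided permutation test on log2 CPM returned 0.0857, and 4 against 4 cannot go below 0.0286. Scg2, Syt1 and Cplx2 were the members with a higher level in wildtype library 3 than in wildtype library 2. Chga and Chgb, the chromogranins of the same granules, did not share its pattern: Chga had 17.7, 12.1, 13.3 and 12.5 CPM in the libraries labelled knockout and 14.6, 17.1, 11.2 and 13.8 CPM in wildtype. Chgb gave a log2 fold change of -0.04 ± 0.16 and Chga one of -0.03 ± 0.14, both with intervals inside a 1.5-fold change. Chgb was at 9.80, 6.78, 9.54 and 9.21 CPM in the libraries labelled knockout, with 10.8, 9.71, 6.53 and 9.29 CPM in wildtype.

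Promoter sequences are shown for Scg2, the member with the largest fold change, and for the other members that share its motifs. RefSeq windows of 300 bases, from 250 before to 50 after a transcription start on GRCm38.p6, were matched by symbol to 26 of the 35 members. Those without an entry were Calb2, Gap43, Kcna1, Nefh, Nefl, Nefm, Snap25, Stmn2 and Thy1. The cyclic AMP response element TGACGTCA, a palindrome bound by CREB-family factors, was searched on both strands and found in Scg2, Chgb and Syn1, 3 of 26 members, and in 2.03% of the 27025 genes with a window. The motif TTCAGCACC, the left part of the RE1 element bound by the neuronal repressor REST, was found on either strand in Scg2 and Syn1, 2 of 26 members, and in 0.433% of all genes. In the sequences, given 5′ to 3′ on the strand of the gene, capitals mark these matches. Scg2 lies at chr1:79439977-79440276 on the minus strand, Chgb at chr2:132781392-132781691 on the plus strand and Syn1 at chrX:20920869-20921168 on the minus strand.
Scg2: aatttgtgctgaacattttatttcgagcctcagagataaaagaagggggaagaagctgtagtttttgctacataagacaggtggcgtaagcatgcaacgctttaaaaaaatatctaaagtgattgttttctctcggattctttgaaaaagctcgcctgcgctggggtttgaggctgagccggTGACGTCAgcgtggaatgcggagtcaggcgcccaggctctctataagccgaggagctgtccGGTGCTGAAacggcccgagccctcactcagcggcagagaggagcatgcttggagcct
Chgb: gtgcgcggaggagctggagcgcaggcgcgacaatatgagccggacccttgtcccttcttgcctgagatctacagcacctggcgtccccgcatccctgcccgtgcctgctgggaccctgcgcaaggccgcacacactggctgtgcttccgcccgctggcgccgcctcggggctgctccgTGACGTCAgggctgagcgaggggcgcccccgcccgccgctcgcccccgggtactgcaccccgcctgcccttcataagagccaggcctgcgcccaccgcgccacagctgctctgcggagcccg
Syn1: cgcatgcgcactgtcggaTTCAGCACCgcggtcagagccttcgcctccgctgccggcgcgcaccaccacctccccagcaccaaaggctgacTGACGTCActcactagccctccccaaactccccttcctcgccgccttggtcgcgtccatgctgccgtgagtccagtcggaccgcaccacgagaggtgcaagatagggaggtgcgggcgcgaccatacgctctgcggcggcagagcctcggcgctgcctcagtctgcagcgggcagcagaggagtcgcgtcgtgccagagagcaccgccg
The element TGACGTCA starts 68 bases before the start of Scg2, 72 before that of Chgb and 159 before that of Syn1. The 3 genes carrying it had log2 fold changes of -1.17, -0.04 and 0.10 in that order, and only Scg2 was lower at an unadjusted p under 0.05. Shorter motifs were searched in the same way. The E-box CAGATG was in 4 of the 26 members and in 19.2% of all genes. The GC box GGGCGG was in 16 members and in 38.2% of all genes, and the TATA box TATAAA in 5 members and in 15.7% of all genes.

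Of the 9 synaptic vesicle and fusion genes, 7 were lowest in wildtype library 3 and 5 were highest in wildtype library 2. Snap25, a fusion protein of the presynaptic membrane, had 17.6, 13.3, 15.3 and 17.5 CPM in the libraries labelled knockout and 17.6, 23.0, 9.19 and 15.5 CPM in wildtype. The wildtype libraries thus enclosed the range of those labelled knockout, and the log2 fold change was -0.04 ± 0.21. The vesicle-coat synapsins Syn1 and Syn2 gave log2 fold changes of 0.10 ± 0.17 and -0.09 ± 0.20, and synaptophysin, Syp, gave -0.11 ± 0.16. Syn1 was at 15.6, 12.0, 13.5 and 10.7 CPM in the libraries labelled knockout, with 12.6, 15.5, 8.34 and 11.8 CPM in wildtype. Syn2 was at 8.41, 6.24, 7.09 and 6.81 CPM in the libraries labelled knockout, with 8.69, 10.2, 4.83 and 6.66 CPM in wildtype. Syp was at 16.3, 12.3, 14.7 and 14.1 CPM in the libraries labelled knockout, with 17.5, 19.1, 10.48 and 14.4 CPM in wildtype. In each of these genes the groups overlapped, and 16.8% of the annotated exon bases of Syp overlap an antisense gene. Cplx1, a complexin that clamps fusion, had 32.02, 25.2, 30.2 and 28.4 CPM in the libraries labelled knockout and 34.6, 39.4, 20.5 and 32.5 CPM in wildtype (log2 fold change -0.13 ± 0.16). In the 4 genes Snap25, Syn2, Syp and Cplx1, wildtype library 2 was the highest and wildtype library 3 the lowest of the 8.

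Syt1, the calcium sensor of vesicle release, had 151, 143, 149 and 172 CPM in the libraries labelled knockout and 149, 135, 163 and 163 CPM in wildtype. It was lowest in wildtype library 2, where most members were highest. Its log2 fold change was 0.01 ± 0.07 with an interval of -0.15 to 0.17. Cplx2, the paralog of Cplx1, had 96.0, 85.1, 87.7 and 100.05 CPM in the libraries labelled knockout and 104, 90.6, 96.7 and 90.9 CPM in wildtype, with a log2 fold change of -0.05 ± 0.06 and an interval of -0.19 to 0.09. The ratio of wildtype library 2 to 3 was thus 0.83 for Syt1 and 0.937 for Cplx2, against 1.93 for Cplx1. The vesicle glycoprotein gene Sv2b, also highest in wildtype library 2 and lowest in wildtype library 3, spread over a range of 22.3 to 28.3 CPM, with 27.6, 24.9, 25.6 and 25.2 CPM in the libraries labelled knockout, with 28.2, 28.3, 22.3 and 27.3 CPM in wildtype, and a log2 fold change of -0.04 ± 0.08. Vamp1, a vesicle SNARE, was at 13.4, 14.5, 16.2 and 14.0 CPM in the libraries labelled knockout, with 15.1, 14.2, 8.78 and 14.2 CPM in wildtype. Wildtype library 3 stood below the other 7 in Vamp1, whose log2 fold change was 0.15 ± 0.15.

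**Figure D3:**
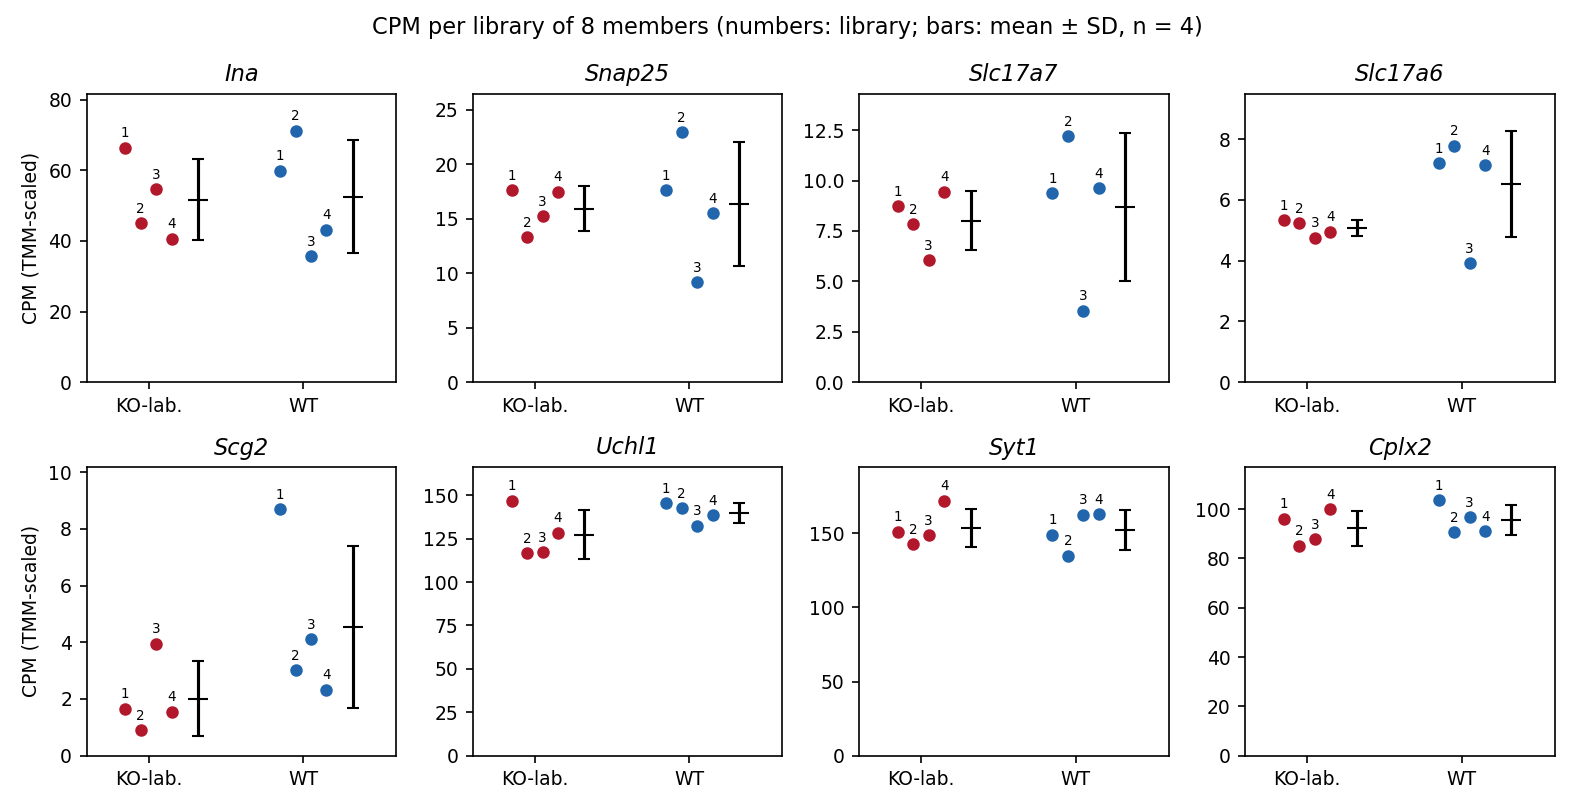
CPM scaled by TMM for 8 members, with a point for each library, numbered as in the labels, and the mean ± SD of each group (n = 4) beside it. Libraries labelled knockout are on the left of each panel. In Ina, Snap25, Slc17a7 and Slc17a6 wildtype library 3 is the lowest point, and Scg2 is highest in wildtype library 1 at 8.69 CPM. Uchl1, Syt1 and Cplx2 spread less, with a ratio of highest to lowest library of 1.26, 1.28 and 1.22.

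The vesicular glutamate transporter genes Slc17a6 and Slc17a7 load glutamate into vesicles. Slc17a6 had 5.32, 5.23, 4.76 and 4.95 CPM in the libraries labelled knockout and 7.22, 7.78, 3.92 and 7.14 CPM in wildtype. The libraries labelled knockout lay close together and below 3 of the 4 wildtype libraries, with the fourth, wildtype library 3, below them all. Its log2 fold change of -0.37 ± 0.18 (SE) had an interval of -0.77 to 0.04 and a Benjamini-Hochberg adjusted p of 0.647 by edgeR's quasi-likelihood test. Without wildtype library 3 it was -0.54, with an edgeR adjusted p of 0.257, the lowest of any member in any fit. Slc17a7 had 8.72, 7.85, 6.04 and 9.46 CPM in the libraries labelled knockout and 9.39, 12.2, 3.54 and 9.62 CPM in wildtype. Its ratio of wildtype library 2 to 3, at 3.44, was the highest among the 34 members, and its log2 fold change was -0.12 ± 0.28.

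Excitability genes were close to level between the groups. The sodium channel genes Scn1a and Scn9a had log2 fold changes of -0.15 ± 0.16 and 0.05 ± 0.19. Scn1a was at 5.80, 5.17, 5.38 and 5.61 CPM in the libraries labelled knockout, with 6.54, 7.27, 4.19 and 6.36 CPM in wildtype. Scn9a, a channel of peripheral sensory neurons, had 25.1, 16.6, 20.8 and 14.8 CPM in the libraries labelled knockout and 19.8, 25.2, 13.7 and 15.9 CPM in wildtype, which overlapped over nearly the whole range. Kcna2, a potassium channel of the axon beside the node, had 40.7, 41.8, 45.3 and 41.1 CPM in the libraries labelled knockout and 43.1, 50.8, 37.2 and 43.9 CPM in wildtype (log2 fold change -0.05 ± 0.08). Its partner Kcna1 gave -0.09 ± 0.14, was highest in wildtype library 2 and had 25.2, 31.5, 26.4 and 37.2 CPM in the libraries labelled knockout, with 30.5, 38.7, 25.3 and 33.8 CPM in wildtype. Scn9a shares 1.41% of its annotated exon bases with an antisense gene. Among the cytosolic members, the calcium buffer gene Calb2 gave -0.08 ± 0.13 and the neuronal enolase gene Eno2 gave -0.02 ± 0.15. Calb2 was at 39.6, 32.3, 31.8 and 41.6 CPM in the libraries labelled knockout, with 39.7, 38.1, 28.9 and 47.2 CPM in wildtype. Eno2 was at 26.4, 24.2, 27.2 and 24.7 CPM in the libraries labelled knockout, with 29.2, 29.5, 16.7 and 28.2 CPM in wildtype. In both, wildtype library 3 was the lowest of the 8.

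Levels can be compared between genes only per length. Per kilobase of annotated exon, the mean over the 8 libraries was 81.8 CPM for Uchl1, 27.7 for Nefl, 21.7 for Stmn3, 21.5 for Calb2, 19.0 for Cplx2 and 18.3 for Syt1. At the other end were Scn1a at 0.520, Thy1 at 0.532, Rbfox3 at 0.814 and Pou4f1 at 0.854 CPM per kilobase. Of the neurofilament genes, Nefl stood above Ina (16.1), Nefm (5.62), Nefh (3.83) and Prph (3.26), and Slc17a7 (1.55) stood above Slc17a6 (1.07). The ranges over libraries overlap for that last pair, for Nefl and Ina, for Nefm and Nefh, for Nefm and Prph and for Nefh and Prph. Such ranges do not set the genes against each other within a library. The lengths are those of GENCODE M21 and may differ from the annotation used for counting.

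**Figure D4:**
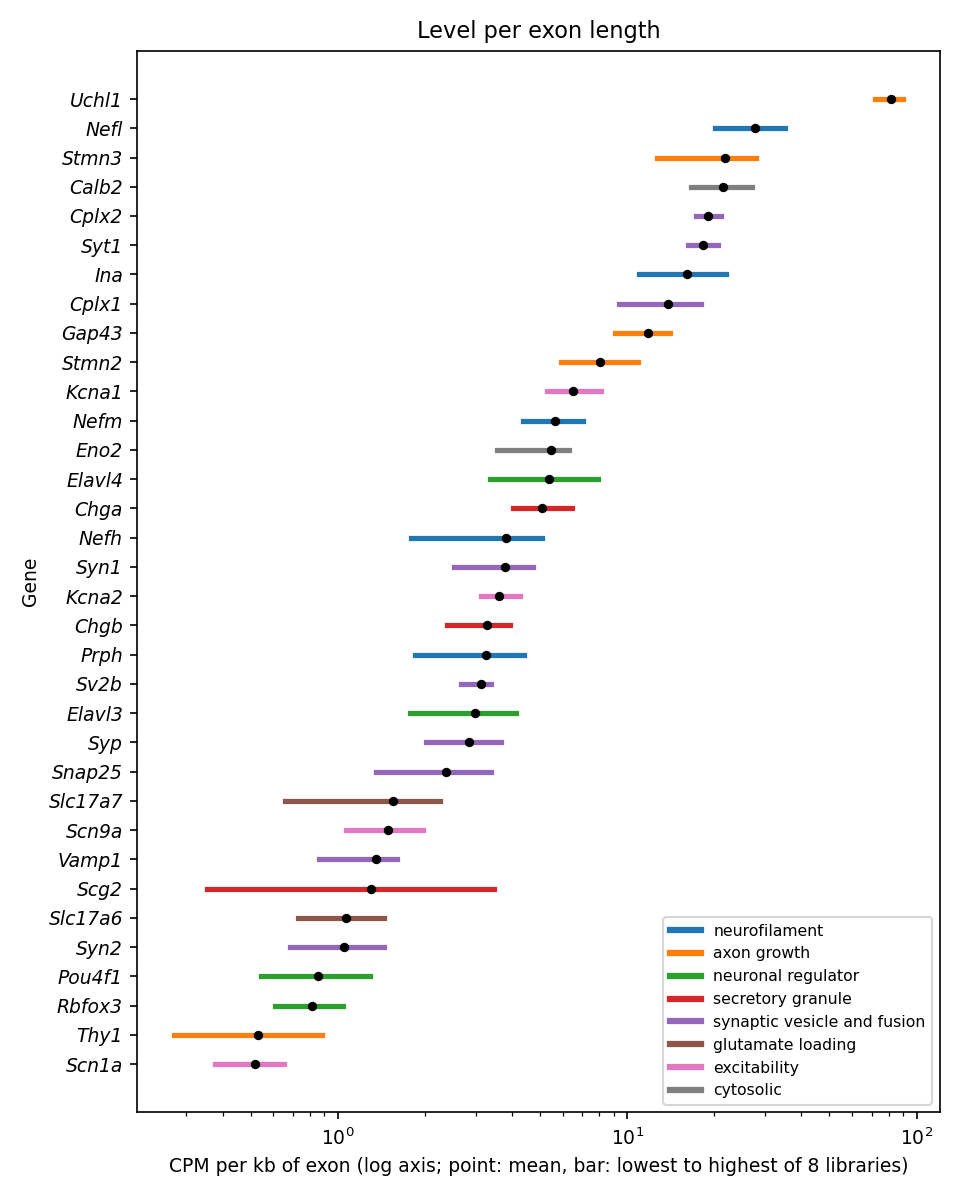
Level of each tested member in CPM per kilobase of exon on a log axis, ordered by the mean. Points are means and bars run from the lowest to the highest of the 8 libraries, coloured by role. Uchl1 leads at 81.8 and Scn1a is lowest at 0.520.

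Other neuronal genes, which are not among the members, also held no calls, and wildtype library 3 was often their lowest library. Of 18 tested genes of spiral ganglion neuron identity, 23 of the axonal cytoskeleton, 29 of the synaptic vesicle cycle, 13 of secretory granules and 25 of excitability, 0 were called higher and 0 lower in edgeR's quasi-likelihood test, and by DESeq2 and limma-voom also 0. Their median log2 fold changes were 0.02, -0.03, -0.01, -0.05 and -0.01. At an unadjusted p under 0.05, 2 of these genes were higher and 0 lower, against 4.76% and 2.78% of all tested genes. The first was Isl1, a LIM homeobox factor of sensory neurons also made in the cochlear epithelium, at 119, 115, 124 and 118 CPM in the libraries labelled knockout and 97.2, 109, 99.0 and 117 CPM in wildtype (log2 fold change 0.17 ± 0.06). The second was Scn11a, a sodium channel gene, at 13.0, 9.84, 9.93 and 8.48 CPM in the libraries labelled knockout and 7.91, 7.69, 7.17 and 5.38 CPM in wildtype. Its log2 fold change was 0.55 ± 0.15 with a Benjamini-Hochberg adjusted p of 0.465 by edgeR. Scn11a was the 1 gene of these 5 lists whose groups did not overlap, against 3.69% of all tested genes in either direction. The smallest p of the other 3 lists belonged to Stmn1 (-0.11 ± 0.06), Slc17a8 (-0.27 ± 0.13) and Cpe (-0.12 ± 0.07), which did not pass. Slc17a8 was also counted in the hair cell list, so its value need not be neuronal.

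Wildtype library 3 was the lowest of the 8 for 61.1% of the tested identity genes, 60.9% of the axonal, 65.5% of the vesicle, 53.8% of the granule and 64.0% of the excitability genes, against 22.4% of all tested genes. Tubb3, the neuronal tubulin, had 53.4, 34.01, 45.6 and 33.0 CPM in the libraries labelled knockout and 53.3, 60.0, 28.9 and 38.1 CPM in wildtype. The axonal protein genes Mapt and Map1b had 37.1 and 347 CPM in wildtype library 3 and 84.2 and 577 CPM in wildtype library 2. Ntrk3, the receptor for the neurotrophin NT-3, had 58.8 CPM in wildtype library 3 and 113 CPM in wildtype library 2, and a log2 fold change of -0.02 ± 0.17. Gata3, which is made in hair cells and supporting cells as well as neurons, did not follow this order, with 302 CPM in wildtype library 3 and 288 CPM in wildtype library 2.

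Markers of other cells in the dissection were seldom lowest in wildtype library 3. That library was the lowest of the 8 for 1 of 19 hair cell genes, 0 of 16 supporting cell genes and 2 of 18 genes of Schwann and satellite glia. Among the libraries labelled knockout, library 1 was the highest and library 2 the lowest for 6 and 6 of 7 red cell genes and for 6 and 3 of 8 macrophage genes, as they were for 22 and 16 of 34 members. The part of red cells and macrophages in that order was not tested. The summed level of the glial list was 1423, 1501, 1362 and 1552 CPM in the libraries labelled knockout and 1470.3, 1504, 1485 and 1572 CPM in wildtype. That of the hair cell list was 971, 960.0, 954 and 992 CPM in the libraries labelled knockout and 989, 903, 1017 and 1078 CPM in wildtype. Wildtype library 3 also had the lowest share of long noncoding RNA counts, 1.67%, against 1.99 to 2.61% in the other wildtype libraries and 2.03 to 2.97% in those labelled knockout, and its part in the result was not tested. Summed over the supporting cell list, the level was 4472, 4509, 4266 and 4892 CPM in the libraries labelled knockout against 4537, 4504, 4987 and 4983 CPM in wildtype. The stria and melanocyte list summed to 989.6, 1002, 909 and 1053 CPM in the libraries labelled knockout against 1162, 1025, 1219 and 1043 CPM in wildtype. Of 10 tested genes of stria and melanocytes, 8 were lower at an unadjusted edgeR p under 0.05, against 2.78% of all tested genes. At the same cutoff 3 of 7 red cell genes and 3 of 8 endothelial genes were lower, and 1 endothelial gene was higher. The median log2 fold change of the stria and melanocyte genes was -1.30. The part of these lists in the results on neuronal genes was not tested. In edgeR's test 0 genes of these and the remaining cell type lists were called. The mesenchyme and cartilage list summed to 15446, 14842, 13137 and 14939 CPM in the libraries labelled knockout against 17019.8, 14648, 16534 and 15914 CPM in wildtype. The red cell list summed to 2591, 1428, 1881 and 1884 CPM in the libraries labelled knockout against 4068, 1777, 2364 and 2751 CPM in wildtype. The endothelial list summed to 323, 312, 310.4 and 333 CPM in the libraries labelled knockout against 349, 318, 355 and 303 CPM in wildtype. By summed CPM these lists were not lowest in wildtype library 3. Of the neuronal lists, that of other secretory granule genes was not either, at 726 CPM there and 645 CPM in library 3 labelled knockout. The rest were lowest there by this measure, the axonal list by little, at 2880 against 2882 CPM in library 2 labelled knockout. The macrophage list summed to 51.2, 46.6, 47.5 and 50.4 CPM in the libraries labelled knockout against 58.3, 53.3, 51.2 and 43.9 CPM in wildtype. The 6 tested efferent and brainstem genes summed to 139, 142, 145 and 164 CPM in the libraries labelled knockout against 159, 142, 157 and 158 CPM in wildtype. Some of these sums rest mostly on 1 gene and so do not measure the level of a cell type. Slc12a2 gave 86.9% of the stria and melanocyte sum, Gata2 78.3% of the efferent and brainstem sum and Col2a1 67.1% of the mesenchyme and cartilage sum. The largest share was 14.5% (Syt1) in the sum of the members and 43.4% (Pam) in that of other secretory granule genes. The genes with the smallest p were Pcdh15 for hair cells (log2 fold change 0.18 ± 0.08), Hey2 for supporting cells (0.42 ± 0.07), Pmp22 for glia (-0.15 ± 0.06), Gad2 for efferent and brainstem neurons (0.40 ± 0.23), Hba-a2 for red cells (-0.54 ± 0.21), Aif1 for macrophages (0.69 ± 0.36), Tek for endothelium (-0.21 ± 0.08), Col1a1 for periotic mesenchyme and cartilage (-0.45 ± 0.12) and Kit for stria and melanocytes (-0.25 ± 0.05).

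**Figure D5:**
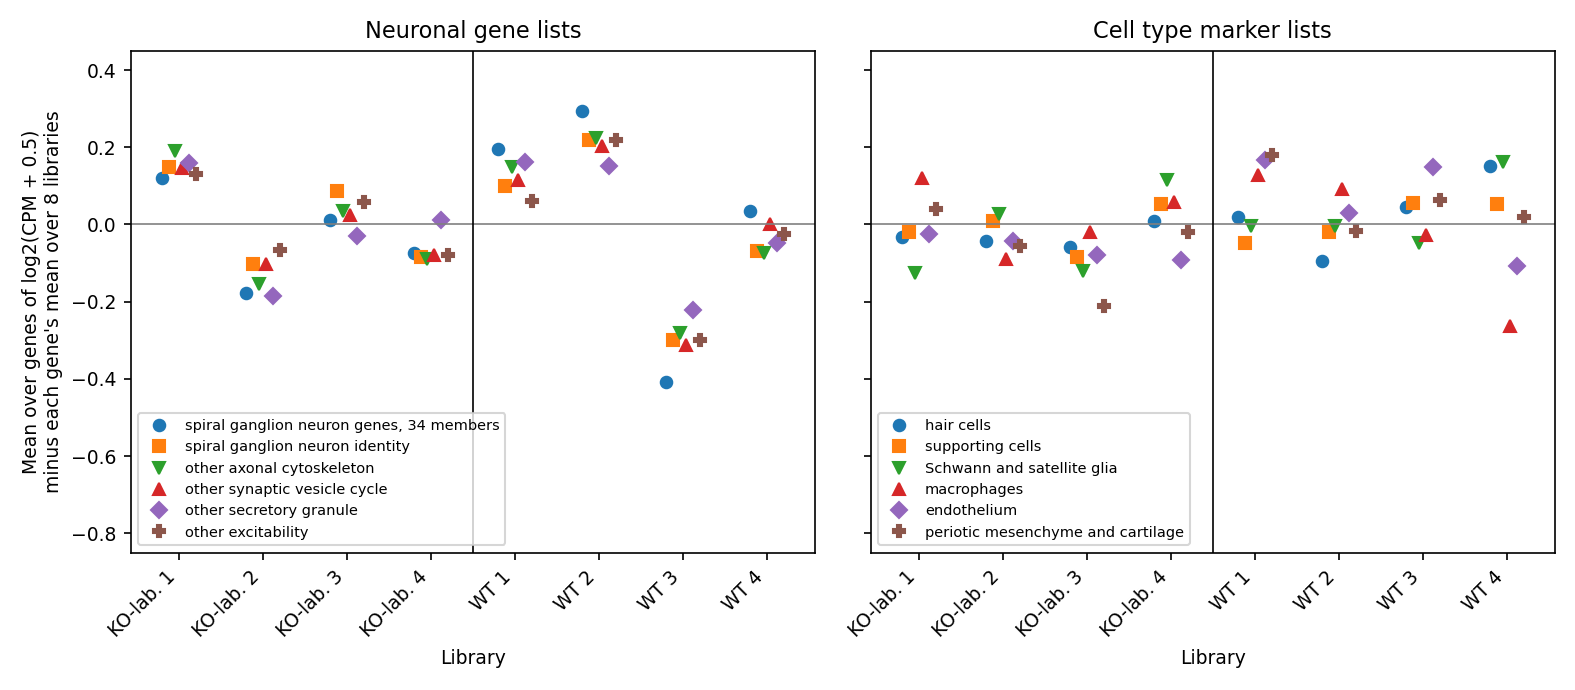
Mean over the tested genes of a list of log2(CPM + 0.5) minus each gene's mean over the 8 libraries, with neuronal lists in the left panel, cell type markers in the right, and the libraries labelled knockout to the left within each. The 6 neuronal lists are all at their lowest in wildtype library 3, where the members stand at -0.41, while the hair cell, supporting cell and glial lists stand between -0.05 and 0.05.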

How the data were processed

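Per the labels' protocols, RNA from 8 samples was purified on RNeasy columns, and sequencing libraries were built after ribosomal depletion with an NEBNext Ultra II kit. The submitters' processing notes name HISAT2 2.2.1 and featureCounts among the tools, and the build GRCm39. Annotation and strand setting: not given in the sources used here.

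Raw counts, 1 table for each genotype, were deposited. The authors also deposited means of the raw counts of each group and a mean of normalized counts, as a signal, which were not used. Their DESeq2 table was deposited with a log2 fold change, its SE, a test score and raw and adjusted p-value columns. Its direction is not stated, and its signs matched knockout over wildtype in 98.2% of genes.

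From the counts, 20581 genes passed edgeR's filterByExpr (minimum count 10), holding 99.90 to 99.93% of each library. TMM factors scaled the libraries, also for CPM. Differences were tested by quasi-likelihood in edgeR 4.0.16 under R 4.3.3, genotype being the only term, by Benjamini-Hochberg adjustment over all tested genes and a threshold of 0.05. Levels per kilobase use the union of exons in GENCODE M21. Alternatives were RLE, upper quartile and plain totals, other filters, DESeq2 1.42.0, limma-voom (limma 3.58.1) with and without quality weights, a replicate block, left-out libraries and a threshold of 0.1. The members, lists and alternatives were chosen with earlier results of these data known. The rule for names covered every member and, from each other list, its called genes, or the smallest-p gene where none was called. Other list genes named (Tubb3, Mapt, Map1b, Ntrk3, Gata3, Runx1, Th, Lypd1, Rxrg, Myo7a, Sox2, Sox10, and the efferent and brainstem genes, 1 of which is not reported here) and the motifs were chosen after their values were seen. The fits were tested on simulated data, with 50 genes changed by each fold. At the threshold of 0.05, edgeR's test recovered 16% of 1.25-fold, 60% of 1.5-fold and 88% of 2-fold changes. The changed genes were drawn from all genes with a mean of at least 1 CPM. The members vary more between libraries than most genes, and recovery for them was not simulated.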

Additional observations from a re-analysis of the deposited data

Results flagged for a closer look

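Within a group of 4 libraries, a library was singled out when its gap to the nearest of the others exceeded the 95% critical value of Dixon's test, taken as a share of the range of the group. Of 68 groups of 4, from 34 members in 2 genotypes, 5 met this, and chance gives about 1 in 20, or 3.40. All 5 lay in wildtype. In wildtype library 3, Sv2b was at 22.3 CPM while the remaining wildtype values were 27.3 to 28.3 CPM, Vamp1 at 8.78 against 14.2 to 15.1 CPM, Slc17a6 at 3.92 against 7.14 to 7.78 CPM and Eno2 at 16.7 against 28.2 to 29.5 CPM. In wildtype library 4, Thy1 was at 2.18 CPM against 1.42 to 1.54 CPM. No member was singled out in the libraries labelled knockout.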

How the results depend on the processing

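Under the 19 alternatives, 0 members and 0 of the other neuronal genes were called in either direction. Over single members and alternatives, 0 of 646 fits passed, and the lowest adjusted p was 0.257. The sign of the fold change changed in at least 1 alternative for 25 members and in none for 9, among them Scg2 (-1.74 to -0.41), Slc17a6 (-0.56 to -0.27), Uchl1 (-0.21 to -0.10) and Vamp1 (0.00 to 0.23). The median log2 fold change of the members lay between -0.06 and -0.04 with other scalings, filters and tests. With 1 library left out it lay between -0.18 and 0.02, so its sign was not stable. The median member had an SD of 0.25 between libraries of a group. Leaving out 1 of 4 libraries could hardly shift the fold change that far, so this SD is no test of stability. The summed level was between 996 and 1061 CPM in the libraries labelled knockout and between 1019 and 1149 CPM in wildtype. With the replicate number as a block, the median was -0.04 and 0 members were called. Same-numbered libraries correlated at 0.11, 0.21, -0.28 and -0.14 in their deviations from the group means. Differently numbered libraries correlated at -0.40 to 0.37. The same-numbered values lie within that range, so they show no pairing by number but cannot exclude a weak one. Depth limits Neurod1 most, with 4 to 15 counts in a library and no test, and after it Thy1 and Scg2, with as few as 24 and 30 counts in a library.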

Other observations

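Within the libraries labelled knockout, library 4 was the lowest of the 4 for 9 members (26.5%), against 32.4% of all tested genes, and the highest for 8 members (23.5%), against 32.1% of all tested genes. The 9 were Nefl at 80.5 CPM, Nefm at 25.3, Prph at 3.69, Ina at 40.6, Pou4f1 at 2.90, Elavl3 at 15.3, Elavl4 at 22.2, Syn1 at 10.7 and Scn9a at 14.8 CPM. The 8 were Nefh at 20.2 CPM, Thy1 at 2.65, Rbfox3 at 5.04, Syt1 at 172, Cplx2 at 100.05, Slc17a7 at 9.46, Kcna1 at 37.2 and Calb2 at 41.6 CPM. Both shares lie below the background, and this order was chosen after the values were seen and was not tested.

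Genes that come to differ between classes of spiral ganglion neurons were counted at low to moderate levels and did not pass. Runx1, a factor of type I subclasses, had 19.4, 13.3, 17.6 and 13.6 CPM in the libraries labelled knockout and 21.1, 20.3, 12.6 and 15.3 CPM in wildtype, a log2 fold change of -0.12 ± 0.17 (SE). Th, tyrosine hydroxylase, a marker of type II neurons in the adult, had 1.42, 1.04, 1.02 and 0.631 CPM in the libraries labelled knockout and 1.91, 1.80, 0.673 and 1.28 CPM in wildtype, a log2 fold change of -0.48 ± 0.33. Lypd1 gave -0.13 ± 0.18 and Rxrg 0.17 ± 0.10.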
